A study of Mus musculus with 77 samples.

Results

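The FOXO-linked stress and energy genes described here are 9 mouse genes, Foxo1, Foxo3, Irs2, Depp1, Txnip, Sesn1, Sesn3, Ddit4 and Trp53inp1, of 25124 genes in the longest deposited tables. They were listed by symbol, with earlier results of these data known, and Depp1 stood under its older symbol 8430408G22Rik in 4 tables. RNA was sequenced from mouse colon organoids and mouse adenocarcinoma cells, to ask how the glucocorticoid receptor (GR, gene Nr3c1) bears on transcription driven by aldosterone through the mineralocorticoid receptor (MR, gene Nr3c2). All RNA samples were taken at 2 h of hormone or vehicle, after culture in charcoal-stripped serum, which lowers background steroid. Aldosterone was used at 10 nM and corticosterone at 100 nM, so the hormones differ in dose as well as in identity.

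GR knockout (GRKO) organoids were given aldosterone (5 samples) or vehicle (5), and wild-type (WT) organoids aldosterone (6) or vehicle (6). GRKO MR cells (label MR-2B12) and parental MR cells (label MR-1G12) were each given corticosterone, aldosterone or vehicle, in 3 GRKO samples of each kind and in 3, 2 and 3 parental samples, of which the second corticosterone sample had no column and was not used. GRKO MR580C and parental MR580C cells carry the label MR-580C and had 3 samples for each of corticosterone, aldosterone and vehicle. Parental cells without MR in the label were given aldosterone (3) or vehicle (3), and are called cells without MR below, by label only. The deposited columns of the GRKO organoids are named GRKD. The labels do not say whether samples of a group came from separate animals or cultures, whether a line is 1 clone, how GR was removed or what drives the introduced MR, so p-values speak of variation among these libraries, part of which may be technical.

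FOXO transcription factors are held in the cytoplasm when insulin or growth factors activate PI3 kinase and, through it, AKT, which phosphorylates them. When that signal is low they enter the nucleus and switch on genes that slow growth, restrain mTORC1, remove oxidants and raise insulin sensitivity. Several of these genes also answer to other inputs: Ddit4 and Sesn1 to stress and p53, Txnip to glucose, and Ddit4 and Irs2 to glucocorticoids in several tissues. SGK1, the kinase product of the aldosterone target Sgk1, can phosphorylate FOXO3 at sites shared with AKT.

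All values below are on the log2 scale of the authors' normalised tables, and a difference is hormone minus vehicle on that scale unless another pair is named. Tables were normalised separately, so levels are compared within a table. A gene was called raised or lowered where the adjusted p of limma was below 0.05. Limma is a linear model fitted over all genes of a table, with Benjamini-Hochberg adjustment. Where a count at an unadjusted p below 0.05 is given, the share of all genes at that level was not computed. The share of called genes beside such a count is at the adjusted threshold. For organoids and parental MR580C cells, the shares of all genes below include genes at or near the lowest value of the table. Library totals ranged between 22.7 M and 61.1 M reads with a median of 37.5 M. In the organoids, 10 of 11 colon epithelial markers ranked at percentile 97.8 of genes or higher, and the stem cell marker Lgr5 stood at percentiles 60.1 and 61.9. Most stromal and immune markers were near the minimum there, and Cd3e, a T cell marker, was at it. In the adenocarcinoma cells Epcam, a defining epithelial marker, was at 0 or the table minimum. In parental MR vehicle libraries 4 of 6 epithelial markers were at 0 or below (Epcam, Krt18, Krt5 and Cdh1) and 2 were above it (Krt14 at percentile 70.2 and Krt8 at 50.1). Of 8 stromal and immune markers in those libraries 1, Cd3e, was below 0, and the fibroblast collagen gene Col1a2 stood at percentile 99.96, with Pdgfra at 70.8 and Col3a1 at 64.4. The Nr3c1 transcript spanned 8.82 to 9.07 in GRKO organoids under aldosterone and 9.07 to 9.24 under vehicle, and 10.50 to 10.85 in WT organoids under aldosterone and 11.15 to 11.42 under vehicle. In the GRKO MR line the transcript was not lower, at 12.98 to 13.02 in vehicle libraries, against 12.84 to 12.90 in parental MR vehicle libraries. In MR580C cells it was at 11.84 to 11.90 in GRKO and 13.13 to 13.21 in parental vehicle libraries, on different scales. These are levels from tables normalised separately. A disrupted gene can still be transcribed, so the transcript does not check the label of the GRKO MR line. The corticosterone difference of Tsc22d3, a known GR target, was 0.30 in GRKO MR and 2.10 in parental MR cells.

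In colon organoids, aldosterone raised 3 of the 9 genes in GRKO organoids (Ddit4, Trp53inp1 and Depp1), where 1.12% of all genes tested were raised. It raised 6 of the 9 in WT organoids (Depp1, Ddit4, Sesn1, Trp53inp1, Txnip and Irs2), where 4.23% of genes were raised. None of the 9 was called lowered in either line by limma. In a direct test of the difference between the responses, 5 of the 9 responded less in GRKO organoids (Depp1, Sesn1, Ddit4, Txnip and Trp53inp1), against 1.87% of genes with a lower response. The median difference over the 9 genes was 0.17 in GRKO organoids and 1.01 in WT organoids, while the median over all tested genes was -0.01 in GRKO and -0.00 in WT organoids. These are bulk RNA samples, so fewer cells of a type and less RNA per cell cannot be told apart.

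The start regions of 4 genes that responded in WT organoids are printed here, to show what lies beside genes with large and with moderate responses. They run from 250 bases before to 50 bases after the annotated start, 5′ to 3′ on the gene's strand, from RefSeq on build GRCm38.p6. Capitals mark 1 exact form of the FOXO recognition motif, TGTTTAC, on either strand. In Txnip they also mark its carbohydrate response element (a pair of CACGAG and the 5 bases between them). That site is known to bind the glucose-sensing factors MondoA and ChREBP. The windows are Depp1 at chr6:116650434-116650733 on the plus strand, Ddit4 at chr10:59951721-59952020 on the minus strand, Sesn1 at chr10:41810324-41810623 on the plus strand and Txnip at chr3:96557707-96558006 on the plus strand.
Depp1: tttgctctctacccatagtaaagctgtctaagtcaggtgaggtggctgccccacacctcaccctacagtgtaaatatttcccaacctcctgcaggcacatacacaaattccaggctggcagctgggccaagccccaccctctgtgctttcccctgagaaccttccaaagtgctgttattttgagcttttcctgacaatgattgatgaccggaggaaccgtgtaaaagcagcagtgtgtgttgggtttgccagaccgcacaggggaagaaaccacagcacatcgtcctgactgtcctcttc
Ddit4: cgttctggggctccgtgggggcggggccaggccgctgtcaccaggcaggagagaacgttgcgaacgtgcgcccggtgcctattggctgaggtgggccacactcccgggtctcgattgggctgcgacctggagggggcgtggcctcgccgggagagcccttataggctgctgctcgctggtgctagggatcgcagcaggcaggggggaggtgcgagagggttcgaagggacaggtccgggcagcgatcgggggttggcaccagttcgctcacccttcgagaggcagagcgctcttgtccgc
Sesn1: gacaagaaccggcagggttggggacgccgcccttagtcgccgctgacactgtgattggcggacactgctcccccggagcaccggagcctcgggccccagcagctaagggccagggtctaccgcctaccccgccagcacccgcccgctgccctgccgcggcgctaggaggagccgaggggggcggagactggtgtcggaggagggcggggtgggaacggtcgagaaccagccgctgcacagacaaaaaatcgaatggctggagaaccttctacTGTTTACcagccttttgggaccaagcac
Txnip: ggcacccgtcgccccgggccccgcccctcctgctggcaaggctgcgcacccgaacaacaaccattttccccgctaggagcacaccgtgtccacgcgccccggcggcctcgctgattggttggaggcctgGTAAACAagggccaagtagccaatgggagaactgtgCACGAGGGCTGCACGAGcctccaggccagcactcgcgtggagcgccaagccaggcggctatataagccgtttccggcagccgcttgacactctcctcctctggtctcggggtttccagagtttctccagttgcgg

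The table of start regions held 8 of the 9 genes, with no entry for Trp53inp1. In 7 of the 8 the annotated start was one given in the deposited tables (Foxo3 was 47 bases off). For Irs2 it was the start used for organoids, MR580C cells and cells without MR (11008929), while MR cells had 11008430. TGTTTAC, searched on both strands, was found in 2 of the 8, Txnip (121 bases before the start, on the opposite strand) and Sesn1 (22 bases after it), and in 3.65% of 32851 mouse start regions of the same length. The receptor motif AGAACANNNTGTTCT, which GR and MR share, was in 0 of the 8 windows and in 0.00913% of all. Its first arm alone, AGAACA, was in 0 of the 8 and in 19% of all. The E-box CACGTG was in Irs2 alone among the 8, 44 bases before the start, and in 7.15% of all. The pattern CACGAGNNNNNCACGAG was taken from what is known of the Txnip element itself, lay 85 bases before the Txnip start, and matched 1 window of 32851. Depp1 and Ddit4, with the largest differences of the 9 genes in WT organoids, held none of these exact patterns in the printed windows. Variants of the patterns, in which single letters differ, were not searched for, so related FOXO sites may lie in any window. A match describes letters in a short window and is not a measurement of binding.

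**Figure D1:**
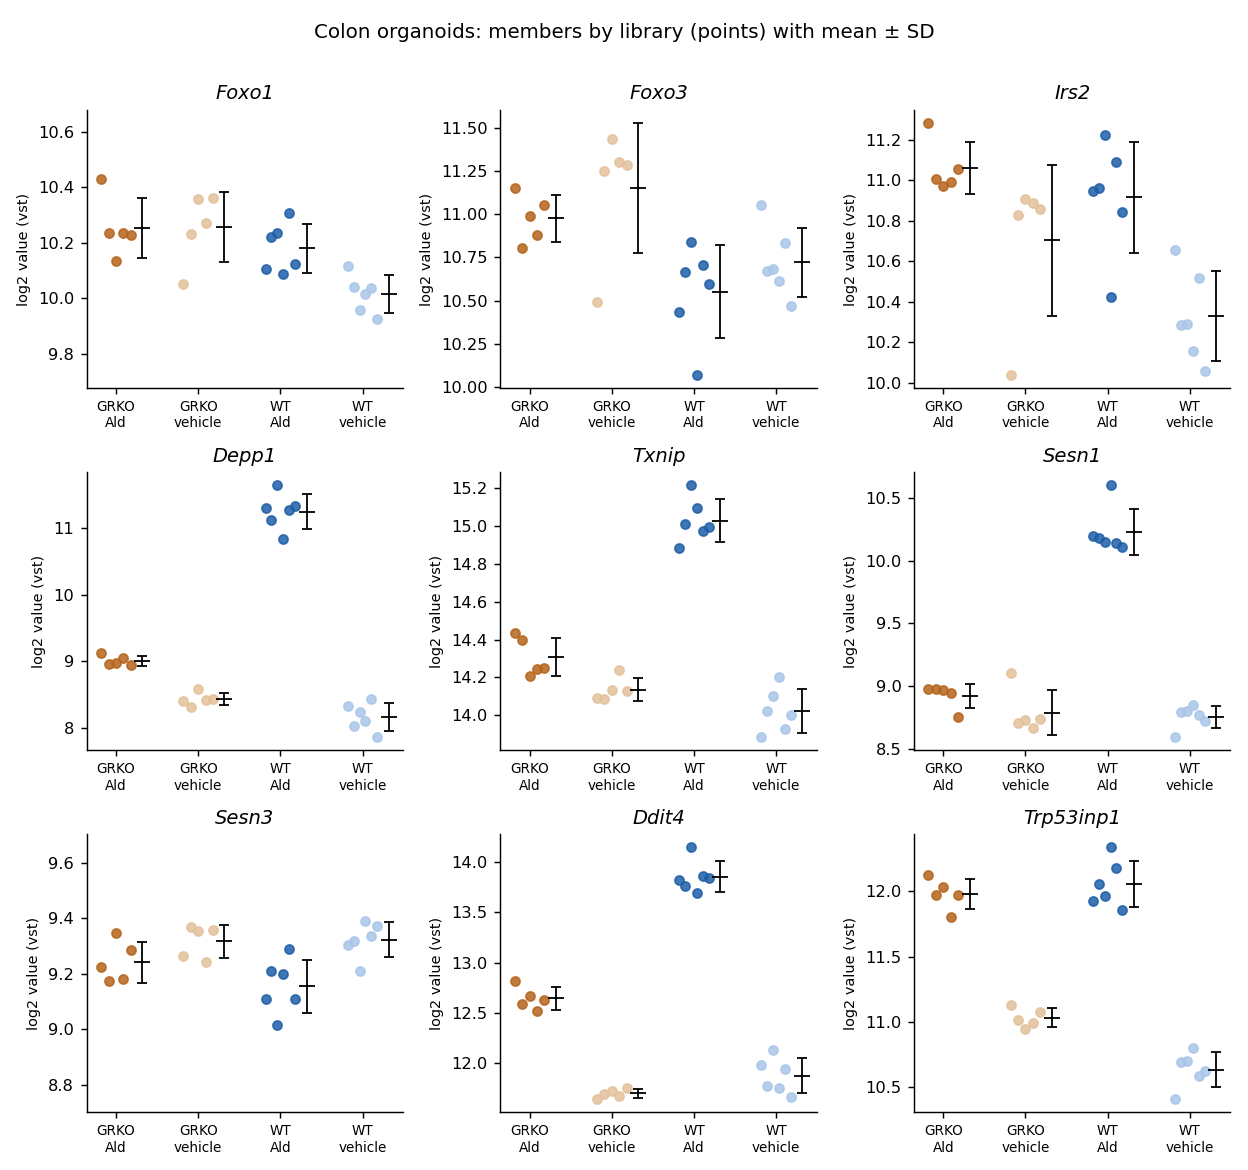
Log2 normalised values (vertical axes) of the 9 genes in each organoid library, with GRKO organoids left of WT organoids and aldosterone left of vehicle in each; points are libraries, with the group mean ± SD to their right. Depp1, Ddit4, Sesn1, Trp53inp1 and Txnip separated fully from vehicle in WT organoids, where Depp1 spanned 10.83 to 11.65 under aldosterone and 7.86 to 8.43 under vehicle.

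Foxo1 and Foxo3 encode the FOXO factors themselves. Foxo1 (NM_019739, chr3:52268337-52350109 on the plus strand, mm10) was at 10.43, 10.24, 10.13, 10.24 and 10.23 in aldosterone-treated GRKO organoids, against 10.05, 10.23, 10.36, 10.27 and 10.36 in their vehicle controls. In WT organoids its lowest, median and highest values were 10.09, 10.17 and 10.31 under aldosterone and 9.93, 10.03 and 10.12 under vehicle. The groups overlapped in both lines, and the differences of -0.00 ± 0.066 (SE) in GRKO and 0.16 ± 0.055 in WT organoids were not called by limma (adjusted p = 0.994 and 0.0916). The authors' deposited table gives the WT difference of Foxo1 as 0.184 with an adjusted p of 0.0367. Foxo3 (NM_019740, chr10:42185786-42276742 on the minus strand) was at 11.15, 10.80, 10.99, 10.88 and 11.06 under aldosterone in GRKO organoids, against 10.49, 11.25, 11.43, 11.30 and 11.28 under vehicle. The first vehicle library was the low one, the other 4 lay above every treated library, and the difference of -0.18 ± 0.13 was not called (limma adjusted p = 0.726). In WT organoids Foxo3 had a lowest, median and highest value of 10.07, 10.63 and 10.84 under aldosterone and 10.47, 10.68 and 11.05 under vehicle. Those groups overlapped, with a difference of -0.17 ± 0.11 (limma adjusted p = 0.528).

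Irs2 encodes an adaptor that carries the signal from the insulin receptor to PI3 kinase, and is itself a FOXO target in liver. Irs2 (NM_001081212, chr8:10984681-11008929 on the minus strand) was at 11.28, 11.01, 10.97, 10.99 and 11.06 under aldosterone in GRKO organoids, against 10.04, 10.83, 10.91, 10.89 and 10.86 under vehicle. All treated libraries were above all vehicle libraries, but the difference of 0.36 ± 0.13 was not called (limma adjusted p = 0.326). In WT organoids the lowest, median and highest values were 10.42, 10.95 and 11.23 under aldosterone and 10.06, 10.29 and 10.66 under vehicle, which overlap. Irs2 rose there by 0.59 ± 0.12 (limma adjusted p = 0.00285). The responses did not differ detectably between the lines, with GRKO minus WT at -0.23 ± 0.19 (limma adjusted p = 0.708).

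Depp1, induced by progesterone in endometrium and a FOXO target that affects autophagy and peroxisomes, showed the largest difference in response between the lines among the 9 genes. Depp1 (NM_001166580, chr6:116650684-116652847 on the plus strand) was at 9.12, 8.96, 8.97, 9.05 and 8.94 under aldosterone in GRKO organoids, against 8.41, 8.32, 8.58, 8.42 and 8.44 under vehicle. In WT organoids its lowest, median and highest values were 10.83, 11.28 and 11.65 under aldosterone and 7.86, 8.18 and 8.43 under vehicle. Treated and vehicle libraries did not overlap in either line, which held for 4 of the 9 genes in GRKO organoids (3.04% of all genes) and 5 of the 9 in WT organoids (4.80% of all genes). Depp1 rose by 0.57 ± 0.058 in GRKO organoids and by 3.08 ± 0.11 in WT organoids (limma adjusted p = 2.61e-05 and 1.68e-12). The response was lower in GRKO organoids by a difference of -2.51 ± 0.14 (limma adjusted p = 4.29e-12). The authors' deposited table gives log2 fold changes of 0.93 in GRKO and 3.70 in WT organoids, larger than the differences of stabilised values, in which the differences of low genes are compressed.

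Ddit4 encodes REDD1, which restrains mTORC1 through the TSC complex. Ddit4 (NM_029083, chr10:59949675-59951770 on the minus strand) was at 12.82, 12.58, 12.67, 12.52 and 12.62 under aldosterone in GRKO organoids, against 11.64, 11.69, 11.72, 11.67 and 11.75 under vehicle. In WT organoids the lowest, median and highest values were 13.70, 13.83 and 14.15 under aldosterone and 11.66, 11.85 and 12.13 under vehicle. The groups were apart in both lines. Ddit4 rose by 0.95 ± 0.054 in GRKO organoids (limma adjusted p = 2.46e-08) and by 1.99 ± 0.084 in WT organoids (1.05e-11), with GRKO minus WT at -1.04 ± 0.11 (limma adjusted p = 3.26e-07).

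Sesn1 and Sesn3 encode sestrins, stress proteins that curb mTORC1 through GATOR2 and AMPK. Sesn1 (NM_001162908, chr10:41810574-41908436 on the plus strand) was at 8.97, 8.98, 8.97, 8.94 and 8.75 under aldosterone in GRKO organoids, against 9.10, 8.71, 8.73, 8.67 and 8.74 under vehicle. In WT organoids its lowest, median and highest values were 10.11, 10.17 and 10.60 under aldosterone and 8.59, 8.78 and 8.85 under vehicle. The GRKO groups overlapped through 1 high vehicle library, the first, and the WT groups were apart. The difference of 0.14 ± 0.078 in GRKO organoids was not called (limma adjusted p = 0.612), Sesn1 rose by 1.47 ± 0.078 in WT organoids (2.29e-10), and GRKO minus WT was -1.34 ± 0.12 (1.31e-08). Sesn3 (NM_030261, chr9:14276301-14326134 on the plus strand), a paralogue, had ranges of 9.17 to 9.35 under aldosterone and 9.24 to 9.37 under vehicle in GRKO organoids. In WT organoids its lowest, median and highest values were 9.02, 9.15 and 9.29 under aldosterone and 9.21, 9.33 and 9.39 under vehicle. Both pairs overlapped, and the differences of -0.08 ± 0.051 in GRKO and -0.17 ± 0.058 in WT organoids were not called by limma (adjusted p = 0.684 and 0.109). The authors' deposited table gives the WT difference of Sesn3 as -0.202 with an adjusted p of 0.0487.

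Txnip encodes an alpha-arrestin that binds thioredoxin and limits glucose uptake. Txnip (NM_001009935, chr3:96557957-96561857 on the plus strand) was at 14.44, 14.40, 14.21, 14.24 and 14.25 under aldosterone in GRKO organoids, against 14.09, 14.09, 14.13, 14.24 and 14.13 under vehicle. In WT organoids the lowest, median and highest values were 14.88, 15.00 and 15.22 under aldosterone and 13.89, 14.01 and 14.20 under vehicle. The GRKO groups overlapped at their edge and the WT groups were apart. The difference of 0.17 ± 0.057 in GRKO organoids was not called (limma adjusted p = 0.238), Txnip rose by 1.01 ± 0.070 in WT organoids (9.90e-09), and GRKO minus WT was -0.83 ± 0.091 (6.72e-07).

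Trp53inp1 encodes a p53-induced protein of stress responses and autophagy. Trp53inp1 (NM_001199105, chr4:11156441-11174379 on the plus strand) was at 12.13, 11.97, 12.03, 11.80 and 11.97 under aldosterone in GRKO organoids, against 11.13, 11.01, 10.94, 10.99 and 11.08 under vehicle. In WT organoids the lowest, median and highest values were 11.86, 12.01 and 12.34 under aldosterone and 10.41, 10.66 and 10.80 under vehicle. Both pairs of groups were apart. Trp53inp1 rose by 0.95 ± 0.058 in GRKO organoids (limma adjusted p = 5.90e-08) and by 1.42 ± 0.080 in WT organoids (6.01e-10). GRKO minus WT was -0.47 ± 0.11 (limma adjusted p = 0.00988), the smallest of the 5 differences called.

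**Figure D2:**
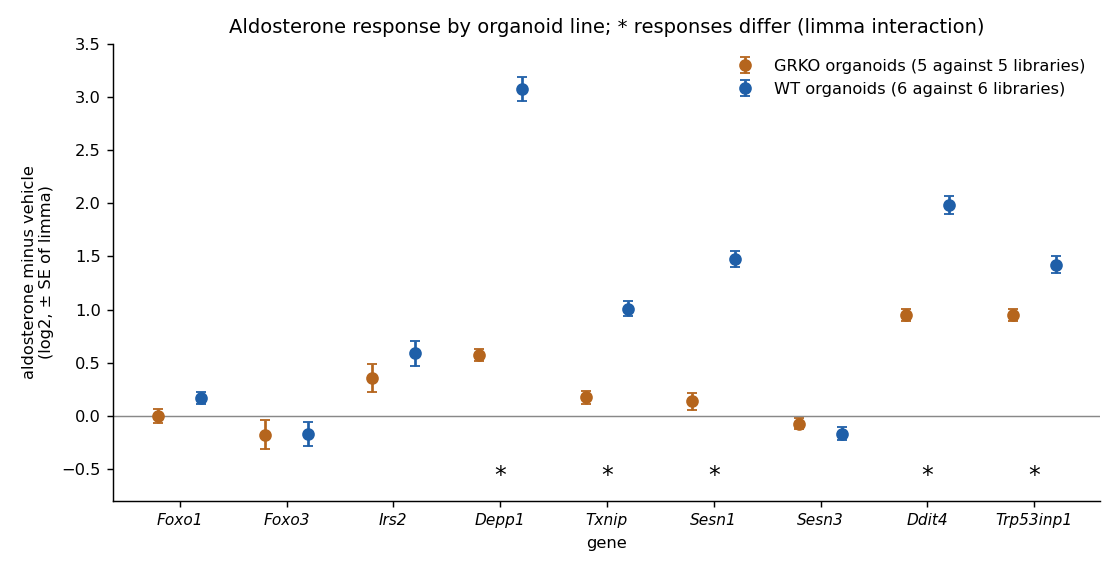
Aldosterone minus vehicle (log2) of the 9 genes in organoids, GRKO left of WT for each gene, with standard errors from limma and asterisks where the responses differed by the interaction test. Depp1 differed most between the lines, at 0.57 in GRKO and 3.08 in WT organoids, while Trp53inp1 stood at 0.95 and 1.42.

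The first vehicle library of the GRKO organoids stood apart in 6.9% of 20050 genes by Dixon's criterion, against 1.58% to 2.11% for the other vehicle libraries of that group. Without it, 970 genes were called in all, against 263 with it, and 6 of the 9 genes were called in GRKO organoids: Ddit4, Trp53inp1 and Depp1 as before, Irs2 raised by 0.19 (limma adjusted p = 0.0485), Sesn1 raised by 0.22 (0.0288) and Foxo3 lowered, at -0.34 (0.0022). The differences of Ddit4, Trp53inp1 and Depp1 were then 0.93, 0.97 and 0.57, and the 5 genes with a lower response in GRKO organoids were called as before. The lowest values of the tables, which hold genes with no reads, differed (6.65 in GRKO and 5.93 in WT organoids), so differences of low genes are compressed more in the GRKO table; Depp1, at about 8, is the member nearest to that floor, and its part in the result was not tested.

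Related genes in the organoids were described through 5 lists. Of all genes, limma called 1.12% raised and 0.195% lowered in GRKO organoids, and 4.23% raised and 2.36% lowered in WT organoids. Of 20 insulin and AKT signalling genes, aldosterone raised 3 in GRKO organoids (Sgk1 4.05, Phlpp2 0.30, Pik3r1 0.26), and in WT organoids raised 2 (Sgk1 5.68, Pik3r1 0.94) and lowered 1 (Pik3r3, -0.63). Pik3r1 encodes the main regulatory subunit of PI3 kinase, and its response was lower in GRKO organoids by a difference of -0.68 ± 0.080 (limma adjusted p = 2.01e-06). Of other FOXO targets, 4 of 32 were raised in GRKO organoids (Pmaip1 0.68, Gadd45a 0.60, Pck1 0.46, Klf6 0.38), and in WT organoids 11 of 31 were raised and 4 lowered. Among those raised in WT organoids were Pmaip1 (1.58), a BH3-only cell death gene, Gadd45b (1.13), a stress gene, and Cdkn1a (0.94), the cell cycle inhibitor p21. The 4 lowered, named after their values were seen, were Trib1 (-0.60), Tnfsf10 (-0.50), Fbxo32 (-0.48) and Ccng2 (-0.34). The median difference over this list was 0.03 in GRKO and 0.05 in WT organoids, near that of all genes. Its called genes moved in both directions in WT organoids, and each share called there was above that of all genes. GRKO minus WT was called higher in 4 and lower in 6 of the 31, against 0.712% and 1.87% of all genes.

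Of 35 AMPK and mTORC1 energy-sensing genes, limma called 0 in GRKO organoids, with 2 at an unadjusted p below 0.05 and 1 called in the authors' deposited table. In WT organoids 4 were raised (Prkag2 0.37, Prkab1 0.34, Prkaa2 0.33 and Ulk1 0.33) and 1 was lowered, Prkaa1 (-0.28), named after its value was seen. Prkaa1 and Prkaa2 encode the alternative catalytic subunits of AMPK, and Prkag2 and Prkab1 encode regulatory subunits. Of 13 alpha-arrestin and thioredoxin genes, Arrdc3, an alpha-arrestin like Txnip, was raised by 0.45 in GRKO and 0.84 in WT organoids, and Arrdc4, whose promoter also answers to MondoA, was lowered, at -0.21 in GRKO and -0.46 in WT organoids. Mlxip, which encodes MondoA, rose by 0.44 in WT organoids, with GRKO minus WT at -0.40 ± 0.069 (limma adjusted p = 0.000528). Of 21 p53 targets, 1 was raised in GRKO organoids (Pmaip1), and in WT organoids 4 were raised (Pmaip1, Cdkn1a, Gdf15 0.86 and Btg2 0.47) and 1 lowered (Fas, -0.34).

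In parental MR580C cells, where both hormones and vehicle stand in 1 table, corticosterone raised 7 of the 9 genes (3.45% of all genes were raised) and aldosterone raised 5 of the 9 (0.719% of all genes). Neither lowered any of the 9. At these doses Irs2 and Foxo3 were higher under corticosterone than under aldosterone, and were the 2 of the 9 genes called in that direct comparison (1.98% of all genes were higher under corticosterone). Both hormone comparisons share the same 3 vehicle libraries. Treated and vehicle libraries did not overlap for 8 of the 9 genes under corticosterone (22.2% of all genes). The same held for 8 of the 9 under aldosterone (12.7% of all genes). Corticosterone and aldosterone libraries did not overlap for 4 of the 9, Foxo1, Foxo3, Irs2 and Sesn1 (17.6% of all genes).

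Among the FOXO factors, Foxo3 was at 11.38, 11.34 and 11.32 under corticosterone, 11.10, 11.11 and 11.15 under aldosterone, and 10.97, 10.89 and 10.95 under vehicle. The 3 groups were fully apart. Foxo3 rose by 0.41 ± 0.033 under corticosterone and 0.19 ± 0.033 under aldosterone (limma adjusted p = 1.68e-08 and 0.0046), and corticosterone minus aldosterone was 0.22 ± 0.033 (0.000159). Foxo1 was at 11.51, 11.49 and 11.47 under corticosterone, 11.41, 11.44 and 11.41 under aldosterone, and 11.35, 11.38 and 11.39 under vehicle. Foxo1 rose by 0.12 ± 0.030 under corticosterone (limma adjusted p = 0.0178), while the 0.05 ± 0.030 under aldosterone was not called (0.601), and the hormones did not differ detectably at 0.07 ± 0.030 (0.299).

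Irs2 was at 12.12, 12.11 and 12.10 under corticosterone, 11.71, 11.77 and 11.79 under aldosterone, and 11.50, 11.48 and 11.54 under vehicle. Each group was apart from the others. Irs2 rose by 0.60 ± 0.032 under corticosterone and 0.25 ± 0.032 under aldosterone (limma adjusted p = 2.03e-11 and 0.000116), and corticosterone minus aldosterone was 0.35 ± 0.032 (1.88e-07). In the authors' deposited table the log2 fold changes of Irs2 are 0.833 for corticosterone and 0.356 for aldosterone.

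Ddit4 was at 12.76, 12.72 and 12.62 under corticosterone, 12.55, 12.80 and 12.60 under aldosterone, and 12.15, 12.06 and 12.21 under vehicle. Both hormone groups were above vehicle and overlapped with each other. It rose by 0.56 ± 0.053 under corticosterone and 0.51 ± 0.053 under aldosterone (limma adjusted p = 1.92e-07 and 6.65e-06), with corticosterone minus aldosterone at 0.05 ± 0.053 (0.768). Txnip was at 10.48, 10.56 and 10.50 under corticosterone, 10.49, 10.79 and 10.54 under aldosterone, and 10.38, 10.32 and 10.25 under vehicle. It rose by 0.20 ± 0.056 under corticosterone and by 0.29 ± 0.056 under aldosterone (limma adjusted p = 0.0351 and 0.00871), and the hormones did not differ detectably (-0.09 ± 0.056, adjusted p = 0.496). Sesn1 rose under corticosterone by 0.21 ± 0.035 (limma adjusted p = 0.0003), and its 0.09 under aldosterone was not called (0.296). Its libraries were at 10.49, 10.58 and 10.57 under corticosterone, 10.46, 10.39 and 10.43 under aldosterone, and 10.36, 10.33 and 10.32 under vehicle. Trp53inp1 was at 10.98, 11.03 and 10.94 under corticosterone, 10.98, 11.09 and 10.91 under aldosterone, and 10.78, 10.88 and 10.69 under vehicle. The hormone groups were above vehicle and overlapped with each other, with rises of 0.20 ± 0.047 and 0.21 ± 0.047 (limma adjusted p = 0.00925 and 0.0249). Sesn3 was not called under corticosterone or aldosterone (0.08 and 0.07). Depp1 was at the table minimum of 9.16 in all vehicle and aldosterone libraries and at 9.21, 9.22 and 9.16 under corticosterone, so no response of it could be measured.

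**Figure D3:**
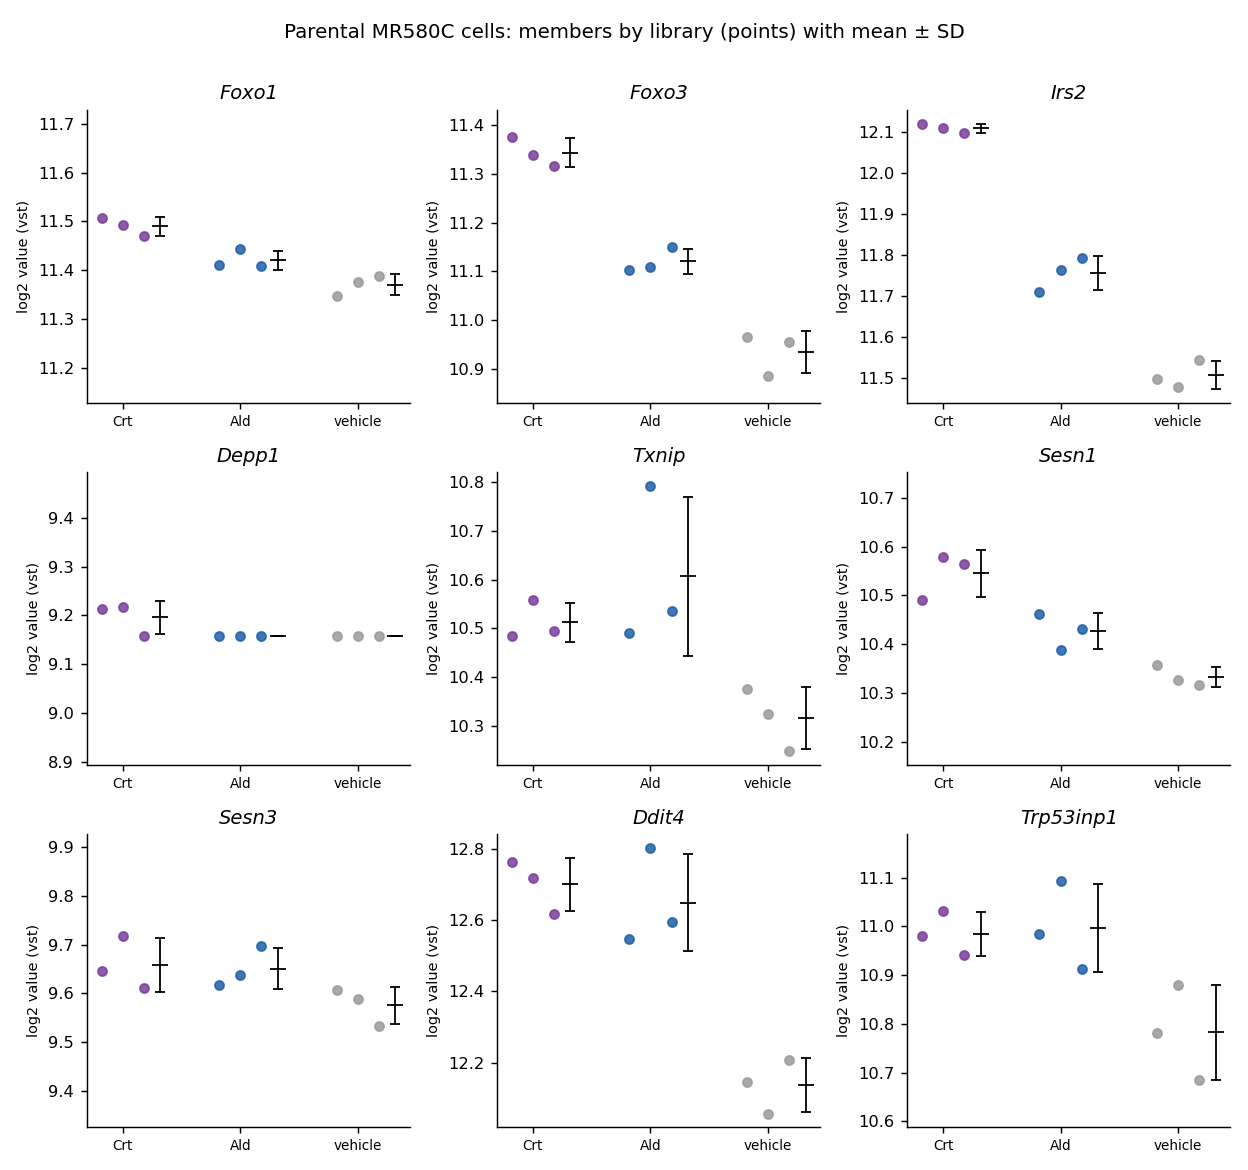
Log2 normalised values (vertical axes) of the 9 genes in each parental MR580C library, by treatment; points are libraries, with the group mean ± SD to their right. Libraries of Irs2, Foxo3, Foxo1 and Sesn1 did not overlap between the 3 treatments. For Foxo1 and Sesn1, neither aldosterone minus vehicle nor corticosterone minus aldosterone was called by limma. Ddit4 reached 12.62 to 12.76 under corticosterone and 12.55 to 12.80 under aldosterone, above 12.06 to 12.21 under vehicle.

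Some of these calls rested on single libraries. Under corticosterone, Foxo1 was not called without vehicle library 1 or corticosterone library 1 or 2 (limma adjusted p = 0.0933, 0.079 and 0.0757), and Trp53inp1 not without vehicle library 3 or corticosterone library 2 (0.12 and 0.117). Txnip under corticosterone was not called without vehicle library 2 or 3 or any corticosterone library (0.0514 to 0.242). Under aldosterone, Trp53inp1 was not called without vehicle library 1 or 3 or aldosterone library 1 or 2 (0.0561 to 0.272), and Txnip not without vehicle library 3 (0.165), which left 3 called genes. Corticosterone minus aldosterone was called for Sesn1 as well without corticosterone library 1 (0.15, 0.0456).

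Among related genes in parental MR580C cells, corticosterone raised Sgk1 (1.70) and lowered Irs1 (-0.71 ± 0.042, limma adjusted p = 8.31e-11) and Pik3cb (-0.26) of 20 insulin and AKT signalling genes. Irs1 encodes the other main insulin receptor adaptor and moved opposite to Irs2, and it was also lower under corticosterone than under aldosterone (-0.61). Of 27 other FOXO targets, corticosterone raised 5 and lowered 4. Cdkn1a stood at 0.48, Pdk4, a brake on glucose oxidation, at 0.47, and Cited2 at -0.61. Over all genes, corticosterone raised 3.45% and lowered 3.47%. Of 34 energy-sensing genes it raised Deptor (0.31), an mTOR inhibitor, and Sesn2 (0.15), and lowered Tsc2 (-0.15). Of 12 alpha-arrestin and thioredoxin genes it raised Arrdc2 (1.14) and lowered Txnrd1 (-0.17), and of 20 p53 targets it raised 6 and lowered 3. Under aldosterone, limma called 6 genes over these lists: Sgk1, Arrdc2 (0.20), Arrdc3 (0.19), Trp53inp2 (0.23) and Btg2 (0.18) raised and Cited2 (-0.20) lowered. Over all genes, aldosterone raised 0.719% and lowered 0.431%.

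In GRKO MR580C cells, limma called 0 of 8 tested genes under aldosterone (0.298% of all genes were called, and 3 of the 8 had an unadjusted p below 0.05). Libraries 2 and 3 of the aldosterone group held identical values and were counted as 1 sample. Txnip was at 6.98 and 6.98 under aldosterone, against 6.85, 6.82 and 6.90 under vehicle. The groups were apart, as for 4 of the 8 genes (34.2% of all genes), and the difference of 0.12 ± 0.026 missed the threshold (limma adjusted p = 0.0845). The authors' deposited table gives Txnip a log2 fold change of 0.753 and an adjusted p of 0.00469, the 1 call there among the 9 genes (2.20% of all genes). That table holds the identical libraries 2 and 3 as separate samples. With both kept, limma also called Txnip (0.13, limma adjusted p = 0.0285), with 683 genes called in all. With the identical libraries averaged, 37 genes were called in all. Without aldosterone library 1, Txnip differed by 0.13 and Sesn1 by 0.11. Without the merged library, Txnip differed by 0.12 and Ddit4 by 0.22. Each of these 2 fits left 1 treated library, so only the differences are given. With all libraries Ddit4 differed by 0.13 ± 0.049 (limma adjusted p = 0.247), Irs2 by 0.04 and Foxo3 by 0.01. For corticosterone in this line a table of 404 genes was used, which lists 1 of the 9, Trp53inp1, at 8.87, 8.90 and 8.83 under corticosterone and 8.76, 8.80 and 8.80 under vehicle. The treated libraries were all higher, and the authors' deposited table gives a log2 fold change of 0.302 with an adjusted p of 0.0243. All other comparisons had 24940 or 25124 genes listed, and the rule that kept these 404 is not known here. Being listed may itself depend on the result. The difference from parental MR580C cells was not tested, since those tables are on different scales.

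In MR cells, Irs2 was the 1 gene of the set called under corticosterone. In GRKO MR cells limma called 0 of 8 genes under corticosterone (0.248% of all genes were called, 0 of the 8 had an unadjusted p below 0.05, and the authors' deposited table calls 0 members and 0.313% of all genes). In parental MR cells it called 1 of 8 raised, Irs2 (2.08% of all genes were raised). The difference between the lines was itself called for Irs2, 1 of 8 genes, against 1.94% of genes with a lower response in GRKO MR cells.

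Irs2 was at 9.81, 9.68 and 9.67 under corticosterone in GRKO MR cells, against 9.75, 9.67 and 9.72 under vehicle. In parental MR cells it was at 9.36 and 9.54 under corticosterone, against 9.02, 9.08 and 9.16 under vehicle. The GRKO groups overlapped and the parental groups did not, as for 6 of 8 genes in parental cells (25.9% of all genes). Among those genes Trp53inp1 was lower under corticosterone, at -0.13 ± 0.057, and was not called (limma adjusted p = 0.445). The difference was 0.01 ± 0.035 in GRKO MR cells (limma adjusted p = 0.969), and Irs2 rose by 0.36 ± 0.056 in parental MR cells (0.00713). GRKO minus parental was -0.35 ± 0.075 (limma adjusted p = 0.0207). Without the variance trend of limma neither call held (adjusted p = 0.0756 in parental MR cells and 0.0616 for GRKO minus parental). The authors' deposited table gives Irs2 a log2 fold change of 0.89 in parental MR cells, with an adjusted p of 2.36e-07. The call of GRKO minus parental was also lost without GRKO vehicle library 1 or 3, GRKO corticosterone library 2 or 3, or parental vehicle library 1. The limma adjusted p was then 0.0577 to 0.0646. Without parental corticosterone library 3, which left 1 treated parental library, GRKO minus parental was -0.26. Foxo3 was at 9.56 and 9.70 under corticosterone in parental MR cells, against 9.47, 9.46 and 9.44 under vehicle. It differed by -0.03 in GRKO MR cells and by 0.17 ± 0.041 in parental MR cells, where it missed the threshold (limma adjusted p = 0.0678); the authors' deposited table gives the parental log2 fold change of Foxo3 as 0.392, with an adjusted p of 0.0221. Without parental corticosterone library 1, Foxo3 and Ddit4 differed by 0.24 and 0.26 in parental MR cells. GRKO minus parental was then -0.26 for Foxo3 and -0.32 for Ddit4. These fits left 1 treated parental library, so only the differences are given. Irs1 was lowered by corticosterone in parental MR cells (-0.44 ± 0.050, limma adjusted p = 0.00113), as in parental MR580C cells, and GRKO minus parental was 0.35 ± 0.066 (0.00898).

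Under aldosterone, limma called 0 of 8 genes in GRKO MR cells (0.993% of all genes were called, and 2 of the 8 had an unadjusted p below 0.05; the authors' deposited table calls 0 members and 0.569% of all genes). It called 0 of 8 in parental MR cells (0.697% of all genes, 3 of the 8 with an unadjusted p below 0.05), where the authors' deposited table calls 1 (0.509% of all genes), Irs2, with a log2 fold change of 0.509 and an adjusted p of 0.0247. Irs2 was at 9.17 and 9.27 under aldosterone in parental MR cells, against 9.02, 9.06 and 9.12 under vehicle, a difference of 0.15 ± 0.036 (limma adjusted p = 0.189). Treated libraries were both above vehicle. Groups did not overlap for 4 of the 8 genes (20.6% of all genes), and among those Trp53inp1 was lower, at -0.10 (limma adjusted p = 0.963). Without vehicle library 3 Irs2 was called (0.18, limma adjusted p = 0.022). In GRKO MR cells the difference of Irs2 was 0.01 ± 0.021. Txnip in GRKO MR cells differed by 0.10 ± 0.031 (limma adjusted p = 0.189), and was called without aldosterone library 2 (0.15, 0.0061), while Ddit4 was called lowered without aldosterone library 3 (-0.16, 0.0254). GRKO minus parental was called for 0 of 8 genes by limma (0.238% of all genes). Of the 8, 4 had an unadjusted p below 0.05, a level at which the share of all genes was not computed. Within each line the corticosterone and aldosterone comparisons share vehicle samples.

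In parental cells without MR in the label, limma called 0 of 8 genes under aldosterone (0.00767% of all genes were called, 1 of the 8 had an unadjusted p below 0.05, and the authors' deposited table calls 0 members and 0.0716% of all genes). Ddit4 differed by 0.05 ± 0.045 and Irs2 by -0.03 ± 0.032. The Nr3c2 transcript was at 4.68 to 4.69 in the vehicle libraries of this line, above the cut-off of 3.32 for genes kept. In parental MR vehicle libraries, normalised separately, it was at 10.81 to 10.87. The aldosterone response of parental MR cells minus that of cells without MR was called for 0 of 8 genes by limma (0.505% of all genes, 2 of the 8 with an unadjusted p below 0.05), with Irs2 at 0.19 ± 0.053 (adjusted p = 0.346). The tables model Irs2 differently, over 4009 exonic bases in the MR cells and 6790 in the cells without MR. Depp1 had values of 0 or below in the MR and GRKO MR580C lines and in the line without MR in the label. It had the minimum value in most parental MR580C libraries, and was tested in 4 of the 10 comparisons of a hormone with vehicle.

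**Figure D4:**
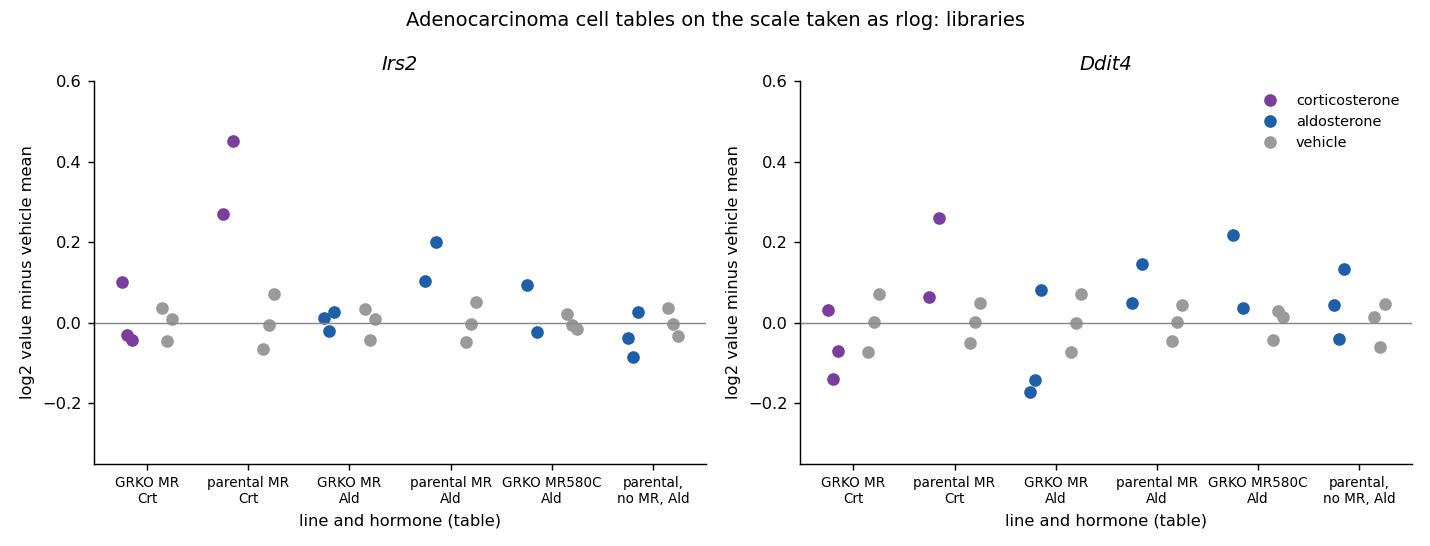
Log2 values of Irs2 (left panel) and Ddit4 (right panel) minus the vehicle mean of the same table, by line and hormone; points are libraries, treated left of vehicle, with identical libraries averaged. Irs2 libraries of parental MR cells under corticosterone, at 9.36 and 9.54 before subtraction, lie above all vehicle libraries, and those of GRKO MR cells overlap with vehicle.

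Over the 10 comparisons of a hormone with vehicle, Irs2, Ddit4 and Trp53inp1 were each called in 4, Txnip in 3, Foxo3, Sesn1 and Depp1 in 2, Foxo1 in 1 and Sesn3 in 0. All of these calls were raised. Depp1, Ddit4, Sesn1, Trp53inp1 and Txnip exceeded a difference of 1 in WT organoids, while every called difference in the adenocarcinoma cells was 0.60 or less on the scales of their own tables, which compress differences unequally. In the authors' deposited tables the log2 fold changes called in the cell lines reach 0.89 and 0.833 for Irs2 under corticosterone. For Txnip under aldosterone the value is 0.753, in GRKO MR580C cells, where 2 aldosterone libraries are identical. The genes whose 10 differences were most like those of Ddit4, by Euclidean distance over 11736 genes, were Tmem37 (0.740), Herpud1 (0.769), an endoplasmic reticulum stress gene, and Pim3 (0.774), a kinase, where the median gene was at 2.36. Tmem37 was at 0.78 in GRKO and 2.22 in WT organoids, and Herpud1 at 1.13 and 2.54. In parental MR580C cells under aldosterone and corticosterone, Tmem37 was at 0.03 and 0.12, Herpud1 at 0.14 and 0.30 and Pim3 at 0.07 and 0.75. Ddit4, at 0.51 and 0.56 there, was above Tmem37 and Herpud1 under both hormones. The distance was taken over scales that compress differences unequally.

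**Figure D5:**
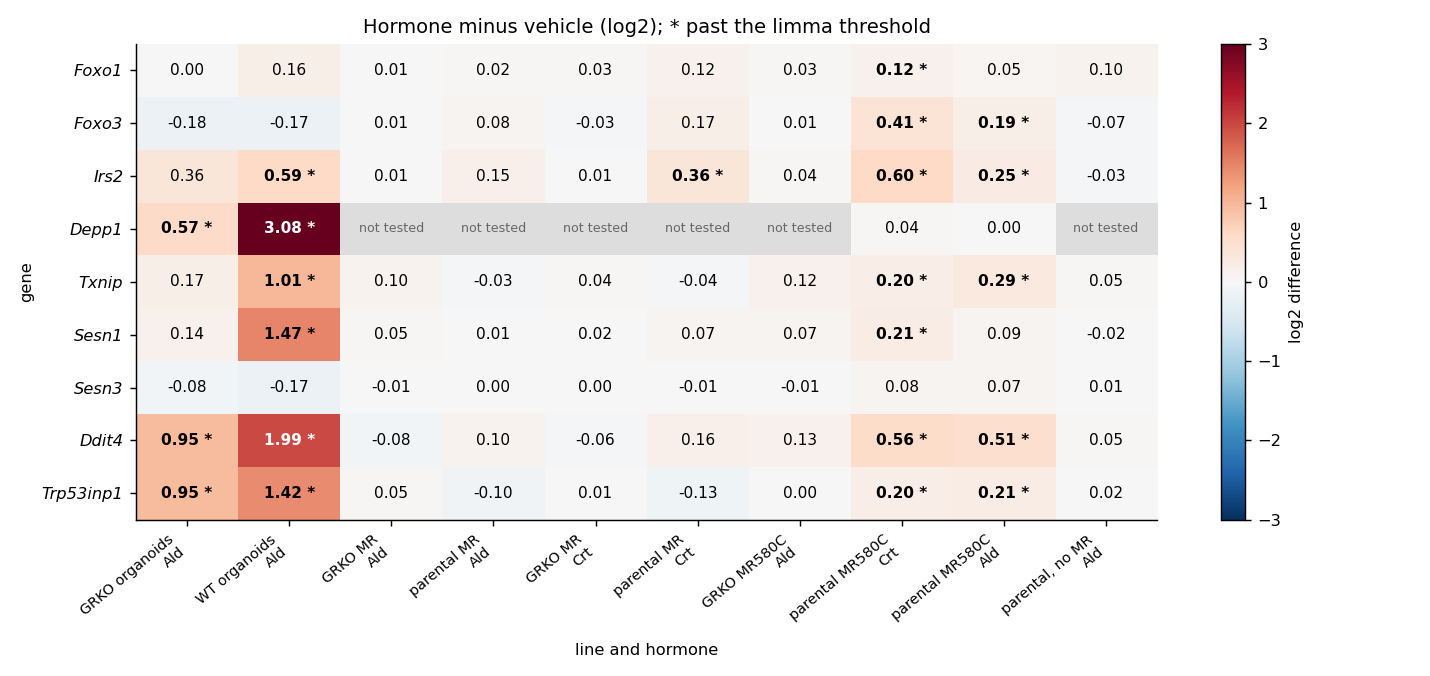
Log2 differences of the 9 genes (rows) in each comparison (columns), coloured by sign and size, with the values printed and asterisks for those past the limma threshold. Differences above 1 stand in the WT organoid column, at 3.08 for Depp1 and 1.99 for Ddit4, and values in the cell lines stay at 0.60 or less on the scales of their own tables, where the authors' deposited log2 fold changes reach 0.89.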

How the data were processed

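RNA was measured in 63 samples of 18 groups, of which 62 had a column; 14 ChIP samples were not analysed. Per the submitters' processing notes, STAR 2.7.0f, HOMER 4.10.4, cutadapt 1.18, Trimmomatic and bcl2fastq 2.20 were used with build mm10. The authors deposited 10 tables of log2 values that were variance-stabilised or, as judged from the values, regularised, with their own log2 fold change and p-value columns; 8 older tables held identical values and were not used. Library totals stand in the file headers. For the strand setting of exon counting the labels and headers give nothing, so overlapping antisense transcription cannot be separated.

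The deposited log2 values were fitted with limma 3.58.1 in R 4.3.3 (group means, trend, two-sided, Benjamini-Hochberg over all genes, threshold 0.05), per table. Genes that reach a linear value of 10 (log2 of 3.32) were kept. The lowest values of WT organoids (5.93), GRKO organoids (6.65) and parental MR580C cells (9.16) lie above that cut-off. There only genes with the same value in all libraries were dropped, so the genes tested include those with almost no reads. Differences between responses were fitted as interactions. The model was tested on simulated data with 200 changed genes. Depp1 and other renamed genes (236 symbols in 4 tables) were matched by alias. Libraries with identical values were averaged.

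The members and lists were chosen with earlier results of these data known. Named were all 9 members, up to 4 called genes per list and comparison, Sgk1, Tsc22d3 and Per1, and the 3 genes nearest to the member called most often (Ddit4, tied at 4 calls with Irs2 and Trp53inp1 and taken for its larger mean absolute difference). Tsc22d3 and Per1 rose by 1.20 and 1.37 in GRKO and by 2.09 and 2.13 in WT organoids. Same-numbered libraries were checked for shared deviations: no comparison met the rule for pairing. Alternatives were no filter, no trend, equal medians, the replicate block, each library left out, libraries as deposited and the authors' statistics.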

Additional observations from a re-analysis of the deposited data

Results flagged for a closer look

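In 36 sets of 1 gene in 1 organoid group, a library far from the others of its group was looked for with Dixon's criterion, which chance meets in about 1 of 20 sets. Irs2 in aldosterone-treated GRKO organoids was 11.28 in replicate 1, with the next library at 11.06. In the first GRKO vehicle library Irs2 was 10.04 (next 10.83), Foxo3 was 10.49 (next 11.25) and Sesn1 was 9.10 (next 8.74). Sesn1 was 8.75 in GRKO aldosterone replicate 6 (next 8.94). In WT organoids under aldosterone, Sesn1 was 10.60 in replicate 4 (next 10.19) and Ddit4 was 14.15 in replicate 3 (next 13.86).

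Responses that differed between lines by the interaction test were those to aldosterone of Depp1 (-2.51), Sesn1 (-1.34), Ddit4 (-1.04), Txnip (-0.83) and Trp53inp1 (-0.47) as GRKO minus WT organoids, and that to corticosterone of Irs2 (-0.35) as GRKO MR minus parental MR cells. These differences were described above.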

How the results depend on the processing

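No called value changed sign under any alternative run. The 6 genes called in WT organoids and the 5 with a lower response in GRKO organoids were 6 and 5 whichever library was left out, and the GRKO organoid count ran from 3 to 6. Leaving out libraries moved the count to 4 to 6 for corticosterone and 3 to 5 for aldosterone in parental MR580C cells, and 2 to 3 between those hormones. It moved the count to 0 to 2 for aldosterone in GRKO MR580C cells, 1 to 3 for corticosterone and 0 to 1 for aldosterone in parental MR cells, 0 to 1 for aldosterone and 0 to 0 for corticosterone in GRKO MR cells, and 0 to 0 in cells without MR. The difference between MR lines in the corticosterone response ran from 0 to 3, those in aldosterone responses from 0 to 0. Without the limma trend, corticosterone in parental MR cells called 0 genes and GRKO minus parental called 0. With libraries shifted to equal medians, both called 2. The authors' statistics called 1 gene for aldosterone in parental MR cells, 2 for corticosterone there and 1 in GRKO MR580C cells; keeping all libraries as deposited also gave 1 there. The cause was not tested. Where leaving out a library left 1 in an arm, it was assumed to vary like the other groups. The upper counts for aldosterone in GRKO MR580C cells and for corticosterone in parental MR cells come from such fits. So does the upper count for the difference between MR lines under corticosterone. Depp1 lay at the floor of the cell line tables, where no response could be measured, and the stabilised scales understate differences of low genes.

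The replicate numbers pair no samples by the rule, although both pairs of parental MR samples correlated at 0.67 to 0.75. With the replicate block, the count in parental MR cells was 3 for aldosterone (Irs2 and Ddit4 raised, Trp53inp1 lowered) and 5 for corticosterone (Foxo1, Foxo3, Irs2 and Ddit4 raised, Trp53inp1 lowered), with 365 and 1257 genes called in all, in fits that leave 1 residual degree of freedom; it was 1 for aldosterone in GRKO MR cells, 1 in GRKO MR580C cells, 3 for GRKO minus parental MR under aldosterone (1 raised, 2 lowered) and 2 under corticosterone. Depp1 in GRKO organoids was not called under the block (0.59, limma adjusted p = 0.141).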
